A study of Mus musculus with 18 samples.

Results

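Chemokines and chemokine receptors were defined by name, as protein-coding genes of the mouse annotation whose symbol starts with Ccl, Cxcl, Cx3cl, Xcl, Ccr, Cxcr, or Ackr followed by a digit. This rule gave 58 genes among the 48023 in the count table, namely 37 ligands, 17 signalling receptors, and 4 atypical receptors. They were measured by RNA-seq in an immortalized line of mouse brown preadipocytes, the undifferentiated precursors of brown fat cells. The line came from the stromal vascular fraction of brown fat and was immortalized with SV40 T antigen, so one genetic background is shared by all libraries and no blood cells or tissue neighbors are part of the model. Cells received vehicle or FGF6, a secreted fibroblast growth factor, at 200 ng/ml for 4, 8, or 24 h, which gave 6 groups of 3 libraries. Whether the 3 libraries of a group came from separate cultures is not stated, so the p-values measure only the spread between these libraries.

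Chemokines are small secreted proteins that set up gradients along which cells migrate. They signal through receptors coupled to inhibitory G proteins, while the atypical receptors bind chemokines and take them up without that signal. In adipose tissue, stromal preadipocytes are a known source of chemokines, which draw in monocytes, neutrophils, and lymphocytes. The comparison of FGF6 with vehicle at each time asks which members of this system respond to the growth factor and when.

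Total counts per library ranged from 24327816 to 33471980, and normalization factors from 0.951 to 1.05. At these depths, 3 counts correspond to between 0.0905 and 0.126 CPM, which are counts scaled to one library size for all samples, and values at or under that level are not distinguishable from none, counting error only. Transcripts that mark stromal precursors were present, with means of 215 CPM for Pdgfra and 227 CPM for Ly6a in vehicle at 4 h, whereas the preadipocyte gene Dlk1 was at 0 in all groups. The defining leukocyte transcripts Ptprc, Adgre1, and Itgam had group means of at most 0.0558 CPM, and those of Cd3e and Ms4a1 were 0.

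Of the 58 members, 23 had enough counts for a test, 35 did not, and 12 of the latter had no count in any library. Of the 23, 5 had no group mean of 1 CPM, namely Ccl4, Ccl17, Ccl28, Cxcl3, and Cxcr6. They could pass the filter on low counts through the group where they were high, so calls on that group partly follow from the filter. At 4 h, 6 of the 23 rose and 8 fell at an adjusted p under 0.05, where 28.6% of all genes tested were called higher and 34.2% lower. At 8 h, 6 rose and 12 fell, against 32.4% higher and 38.4% lower among all genes. At 24 h, 2 rose and 16 fell, against 35.9% higher and 37.9% lower. At 24 h, 15 of the 23 fell at least 2-fold, where 15.3% of all genes tested did. Among the 18 members with a group mean of at least 1 CPM, 4 rose and 7 fell at 4 h, 5 and 10 at 8 h, and 1 and 14 at 24 h. The median log2 fold change of the 23 was -0.07 at 4 h, -0.29 at 8 h, and -1.37 at 24 h, beside -0.05, -0.05, and -0.02 for all genes. In bulk RNA, fewer cells that express a gene and less RNA per cell cannot be told apart.

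**Figure D1:**
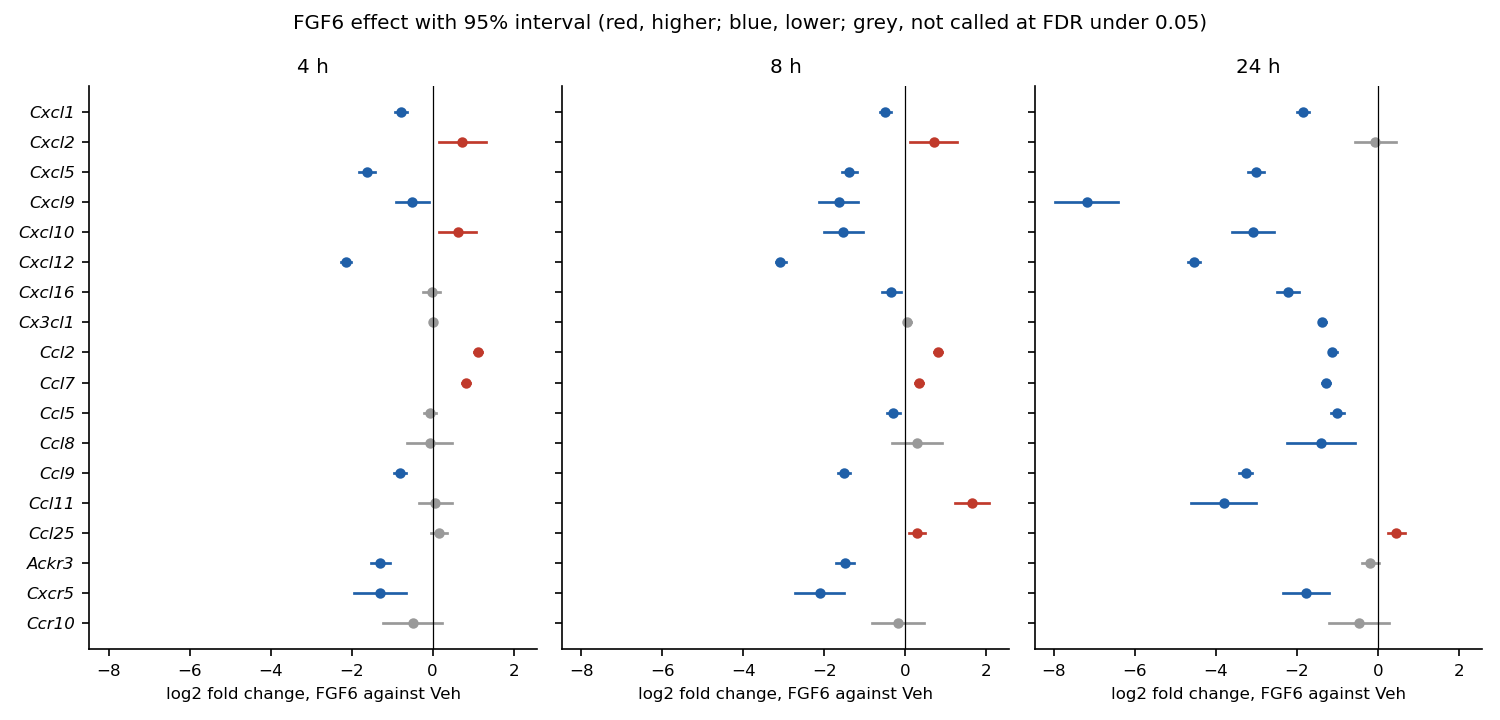
Log2 fold change of FGF6 against vehicle (x axis) with its 95% interval for the 18 members with a group mean of at least 1 CPM, one panel per time point, red where higher, blue where lower, and grey where not called at an adjusted p under 0.05. At 24 h, 14 of the 18 lie below zero as calls and 1, Ccl25, above.

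Cxcl12, also known as SDF-1, is the stromal chemokine that retains blood and immune precursors near stromal cells, and it fell at every time. It lies at chr6:117168535-117181367 on the plus strand of GRCm38. The vehicle libraries held 2060, 2100, and 2170 CPM at 4 h, and the FGF6 libraries 439, 499, and 507 CPM. At 8 h, the values were 2430, 2630, and 2710 CPM in vehicle and 310, 308, and 304 CPM in FGF6. At 24 h, they were 1580, 1670, and 1650 CPM in vehicle and 65.1, 66.3, and 79.4 CPM in FGF6. Every FGF6 library was below every vehicle library of its time, and the gap widened at each step. The log2 fold change was -2.13 ± 0.06 (SE; adjusted p = 1.02e-20) at 4 h, -3.08 ± 0.06 (6.98e-24) at 8 h, and -4.54 ± 0.06 (6.71e-27) at 24 h, the last a 23.3-fold lower level. The effect was more negative at 8 h than at 4 h by 0.95 (SE 0.08, adjusted p = 1.02e-09) and, between 8 h and 24 h, the difference was -1.46 (SE 0.08, 6.13e-14).

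Ackr3, the atypical receptor that scavenges CXCL12, was at 13.1, 11.8, and 13.4 CPM in vehicle and 5.92, 5.64, and 3.9 CPM in FGF6 at 4 h. At 24 h, it was at 12.2, 11, and 12.9 CPM in vehicle and 11.1, 10.6, and 10 CPM in FGF6, and these groups overlapped. It fell at 4 h (log2 -1.29 ± 0.11, adjusted p = 6.65e-11) and at 8 h (-1.49 ± 0.10, 1.8e-12), and at 24 h the difference of -0.19 ± 0.10 did not pass (adjusted p = 0.0854). The change of the effect from 8 h to 24 h was itself called (1.31 ± 0.14, adjusted p = 3.57e-08). Cxcr4, the signalling receptor of CXCL12, had at most 6 counts in any library and was not tested.

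Cxcl9 and Cxcl10 are the interferon-induced ligands of CXCR3, which attract activated T cells, and their genes are neighbors within chr5:92321347-92348889 on the minus strand. For Cxcl9, the vehicle libraries at 24 h held 19.8, 26.4, and 24.4 CPM, and the FGF6 libraries 0.0729, 0.0714, and 0.33 CPM, which are 2, 2, and 9 counts. Every vehicle library was far above every FGF6 library, and 2 of the FGF6 libraries were under the floor of 3 counts. The ratio of the summed counts, 2023 in vehicle and 13 in FGF6, was 150-fold after scaling, with a counting interval of 87.8 to 283, and the fitted log2 fold change was -7.19 ± 0.36 (adjusted p = 1.51e-15). Without FGF6 replicate 3 at 24 h, the fitted value was -8.23. At 8 h, Cxcl9 was at 10.7, 9.34, and 11.5 CPM in vehicle and 4.72, 2.15, and 3.16 CPM in FGF6 (log2 -1.64 ± 0.22, adjusted p = 3.43e-07). At 4 h, the vehicle values of 8.56, 10.6, and 15.4 CPM overlapped the FGF6 values of 9.28, 8.51, and 6.54 CPM. The call at 4 h (log2 -0.50 ± 0.19, adjusted p = 0.0246) was lost without vehicle replicate 3 (-0.24, adjusted p = 0.286), without FGF6 replicate 2 (-0.51, 0.0512), without FGF6 replicate 3 (-0.35, 0.147), and by DESeq2 (-0.48, 0.144).

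Cxcl10 was more abundant and varied more between libraries. At 4 h, it was at 109, 221, and 227 CPM in vehicle and 293, 351, and 210 CPM in FGF6, groups that overlapped. The rise (log2 0.62 ± 0.21, adjusted p = 0.0136) was not called without vehicle replicate 1 (0.35, adjusted p = 0.106) or without FGF6 replicate 2 (0.46, 0.0851). At 8 h, the vehicle libraries held 159, 257, and 294 CPM and the FGF6 libraries 89.8, 64.2, and 92.4 CPM. At 24 h, they held 241, 289, and 317 CPM and 37.5, 30.4, and 31.9 CPM, so the groups were apart at both later times. Cxcl10 fell by 1.53 ± 0.22 on the log2 scale at 8 h (adjusted p = 1.11e-06) and by 3.08 ± 0.24 at 24 h (1.65e-11), the latter 8.48-fold. Exons of Cxcl10 overlap those of Art3 on the opposite strand over 133 bases. Cxcr3, the receptor that both ligands share, had at most 4 counts in any library.

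Upstream sequences are shown for the members with an entry in the promoter table that fell most at 24 h, because Cxcl9 and Cxcl10 fell together while Cxcl12 lies alone on another chromosome. For Cxcl9, Cxcl12, Ccl9, and Cxcl10, which come in the order of their fall, the 250 bases before the RefSeq start are given 5′ to 3′ on the strand of the gene (GRCm38.p6), with motif matches in capitals. They lie at chr5:92328080-92328329 (minus), chr6:117168285-117168534 (plus), chr11:83578637-83578886 (minus), and chr5:92348890-92349139 (minus).
Cxcl9: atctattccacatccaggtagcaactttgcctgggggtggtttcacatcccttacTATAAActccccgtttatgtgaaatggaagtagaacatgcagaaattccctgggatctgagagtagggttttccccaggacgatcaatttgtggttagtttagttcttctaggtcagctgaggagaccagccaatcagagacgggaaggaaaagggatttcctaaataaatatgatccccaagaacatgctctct
Cxcl12: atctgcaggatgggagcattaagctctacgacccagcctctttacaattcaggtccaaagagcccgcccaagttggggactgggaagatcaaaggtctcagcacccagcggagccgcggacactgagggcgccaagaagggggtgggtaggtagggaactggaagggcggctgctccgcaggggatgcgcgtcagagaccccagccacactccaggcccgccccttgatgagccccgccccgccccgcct
Ccl9: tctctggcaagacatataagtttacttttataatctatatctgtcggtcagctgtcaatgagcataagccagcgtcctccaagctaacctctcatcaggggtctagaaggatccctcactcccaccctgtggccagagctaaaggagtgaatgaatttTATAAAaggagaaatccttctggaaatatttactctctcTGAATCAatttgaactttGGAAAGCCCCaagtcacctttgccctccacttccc
Cxcl10: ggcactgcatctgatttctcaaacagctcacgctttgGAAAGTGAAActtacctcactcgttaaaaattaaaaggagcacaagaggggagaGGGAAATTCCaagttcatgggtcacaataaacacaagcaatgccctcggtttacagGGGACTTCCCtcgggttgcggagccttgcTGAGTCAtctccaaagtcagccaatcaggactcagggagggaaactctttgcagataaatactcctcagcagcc

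The capitals mark matches to the kappaB motif by name, the ISRE motif (TTTC, any 2 bases, TTTC), the AP-1 motif TGANTCA, and TATAAA. The first 3 were searched on both strands and TATAAA on the strand of the gene, and a match is a description of the letters only. Cxcl10 held an ISRE match from 213 to 204 bases before the start, kappaB matches at 159 to 150 and at 103 to 94, and an AP-1 match at 74 to 68. Ccl9 held TATAAA at 92 to 87, an AP-1 match at 53 to 47, and a kappaB match at 35 to 26, Cxcl9 held only TATAAA at 195 to 190, and Cxcl12 held none of the 4. Among 32851 promoter windows of the same length, 3.9% held a kappaB match, 2.98% an ISRE match, 6.75% an AP-1 match, and 7.59% TATAAA. Windows were found for 44 of the 58 members, with 51 starts in all, of which 9 held a kappaB match, 3 an ISRE match, 6 an AP-1 match, and 12 TATAAA. Only 10 of the 18 members with a group mean of at least 1 CPM had a window, so these counts rest largely on members with few or no counts. Of the 11 starts of those 10, 4 held a kappaB match, 1 an ISRE match, 2 an AP-1 match, and 6 TATAAA. The kappaB matches included Cxcl1, at 71 to 61 bases before the start, and Cxcl2, at 97 to 87, where the motif matched on both strands. The GAS motif (TTC, any 3 bases, GAA) was searched on both strands too, and 4 of the 51 starts held it, beside 7.02% of all windows. The CRE motif, a palindrome of TGAC and GTCA searched on both strands, was in 0 of the 51 and in 1.55% of all windows.

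The neutrophil-attracting CXC ligands that carry a Glu-Leu-Arg sequence, which signal through CXCR2, lie in a row on chromosome 5. Cxcl5 was the most abundant of them. It was at 518, 484, and 533 CPM in vehicle and 170, 160, and 167 CPM in FGF6 at 4 h, at 711, 705, and 755 CPM against 307, 270, and 259 CPM at 8 h, and at 778, 680, and 684 CPM against 112, 80.7, and 74.4 CPM at 24 h. No FGF6 library reached a vehicle library at any time. Cxcl5 fell by 1.63 ± 0.09 on the log2 scale at 4 h (adjusted p = 3.99e-14), by 1.38 ± 0.09 at 8 h (4.63e-13), and by 3.01 ± 0.10 at 24 h (1.47e-19). Cxcl1 was at 188, 190, and 204 CPM in vehicle and 112, 111, and 117 CPM in FGF6 at 4 h, and at 308, 288, and 292 CPM against 96.1, 79.9, and 69.7 CPM at 24 h. These groups were apart as well, and Cxcl1 fell by 0.78 ± 0.07 at 4 h (adjusted p = 2.08e-10), by 0.49 ± 0.07 at 8 h (4.08e-07), and by 1.85 ± 0.07 at 24 h (3.96e-18).

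Cxcl2, a further ligand of CXCR2, stood at much lower levels and moved the other way at the early times. It was at 0.811, 0.742, and 0.768 CPM in vehicle and 1.29, 1.12, and 1.46 CPM in FGF6 at 4 h, with no overlap. It rose by 0.73 ± 0.27 at 4 h (adjusted p = 0.0203) and by 0.71 ± 0.27 at 8 h (0.0207), and at 24 h the log2 difference was -0.06 ± 0.24 (0.838). The call at 4 h was lost without vehicle replicate 2 (0.70, adjusted p = 0.0537) and without FGF6 replicate 3 (0.66, 0.0626), and that at 8 h without vehicle replicate 3 (0.67, 0.055) and without FGF6 replicate 2 (0.64, 0.0692). Cxcl3 had at most 16 counts in a library and was called lower at 24 h (log2 -1.25 ± 0.55, adjusted p = 0.0436), a call lost without any 1 of the 3 vehicle libraries and without FGF6 replicate 1 or 2, where the values ran from -1.3 to -0.85 and the adjusted p from 0.061 to 0.201. Without FGF6 replicate 3 it was -2.08. Cxcl3 had its highest counts as a group, 10, 16, and 9, in vehicle at 24 h. It could pass the filter through that group, against which it was then called lower. Cxcl2 and Cxcl3 are close copies, with 5.84% of the 50-base stretches of Cxcl2 transcripts found in another gene and 4.29% of those of Cxcl3, so their counts are uncertain to that extent. Cxcl15 had at most 3 counts in any library.

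Cxcl16 and Cx3cl1 differ from the other ligands in that they are made as membrane-bound proteins on a mucin stalk, from which they can be shed. Cx3cl1, also called fractalkine, was at 156, 154, and 155 CPM in vehicle and 149, 159, and 160 CPM in FGF6 at 4 h. At 24 h, it was at 174, 186, and 181 CPM in vehicle and 67.8, 67.0, and 74.4 CPM in FGF6. The groups thus overlapped at 4 h and were far apart at 24 h. The log2 fold change was 0.01 ± 0.04 at 4 h (adjusted p = 0.829; 95% interval -0.07 to 0.09), 0.05 ± 0.04 at 8 h (0.219; -0.03 to 0.14), and -1.37 ± 0.04 at 24 h (2.51e-20). With library sizes alone, the value at 4 h was -0.09 and was called (adjusted p = 0.0368), and DESeq2 called the value at 8 h (0.09, 0.0384). Cxcl16 was at 13.7, 13.8, and 15.2 CPM in vehicle and 13.3, 15.4, and 13.1 CPM in FGF6 at 4 h, and at 12.6, 13.6, and 13.9 CPM against 2.88, 2.43, and 3.3 CPM at 24 h. It fell by 2.22 ± 0.13 at 24 h (adjusted p = 2.28e-14), with a log2 difference of -0.02 ± 0.10 at 4 h (0.847). At 8 h, the fall (-0.35 ± 0.11, 0.00612) was not called without vehicle replicate 3 (-0.23, 0.0704) or without FGF6 replicate 2 (-0.26, 0.0549). Cxcl16 overlaps Zmynd15 on the opposite strand over 552 exonic bases, and reads from both cannot be told apart where strand was not used in counting.

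Ccl2 and Ccl7, also known as MCP-1 and MCP-3, attract monocytes through CCR2, and both rose before they fell. They head a row of CC ligand genes at chr11:82035571-82305690. Ccl2 was at 930, 1020, and 1060 CPM in vehicle and 2120, 2260, and 2180 CPM in FGF6 at 4 h. At 8 h, it was at 842, 920, and 958 CPM and 1590, 1570, and 1620 CPM, and at 24 h at 1190, 1160, and 1180 CPM and 571, 537, and 523 CPM. The FGF6 libraries were above all vehicle libraries at 4 and 8 h and below all of them at 24 h. The log2 fold change was 1.12 ± 0.04 (adjusted p = 2.57e-17), 0.82 ± 0.04 (8.97e-15), and -1.12 ± 0.04 (1.1e-17). The effect at 24 h differed from that at 8 h by -1.93 ± 0.06 (adjusted p = 2.91e-18).

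Ccl7 followed Ccl2 with smaller early changes. Ccl7 was at 403, 440, and 454 CPM in vehicle and 731, 813, and 745 CPM in FGF6 at 4 h, and at 506, 496, and 508 CPM against 212, 207, and 201 CPM at 24 h. It rose by 0.82 ± 0.05 at 4 h (adjusted p = 3.17e-14) and by 0.33 ± 0.05 at 8 h (3.64e-07) and fell by 1.28 ± 0.05 at 24 h (1.79e-18). Ccl11 and Ccl8 of the same row stood under 3 CPM in every library and were also lower at 24 h. Ccl11, or eotaxin, which attracts eosinophils, was at 0.947, 0.667, and 0.89 CPM in vehicle and 2.57, 2.59, and 2.75 CPM in FGF6 at 8 h (log2 1.65 ± 0.19, adjusted p = 3e-08). At 24 h it had 30, 34, and 27 counts in vehicle and 2, 2, and 2 counts in FGF6, a ratio of 14.7 with a counting interval of 6.48 to 41 (adjusted p = 8.42e-10). Ccl8, or MCP-2, was not called at 4 or 8 h and fell by 1.40 ± 0.38 at 24 h (adjusted p = 0.00201), from 0.911, 0.633, and 0.799 CPM to 0.474, 0.143, and 0.257 CPM. Ccl12 and Ccl1, in the same row of genes, had at most 4 and 2 counts in any library.

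**Figure D2:**
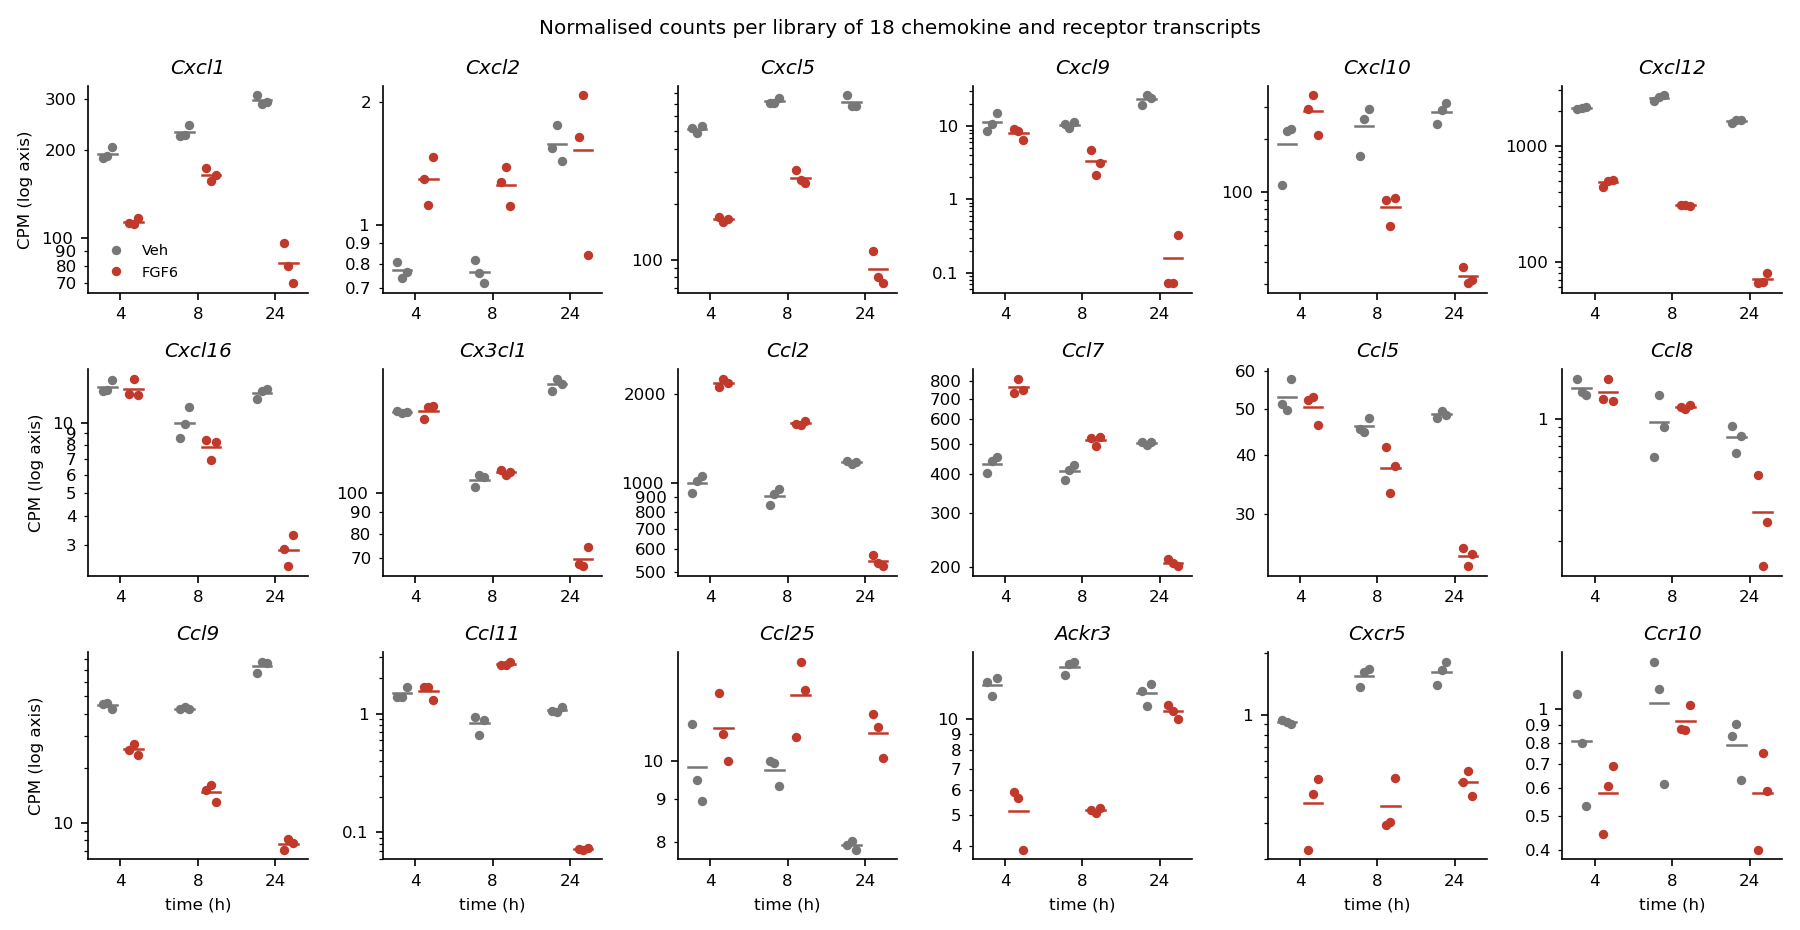
Normalised counts per library (CPM, log axis) of the 18 members with a group mean of at least 1 CPM at 4, 8, and 24 h, vehicle in grey and FGF6 in red, with horizontal lines at the means of 3 libraries. Cxcl12 is lower in FGF6 at each time, whereas Ccl2 and Ccl7 are higher at 4 and 8 h and lower at 24 h.

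A further row of CC ligands lies at chr11:83525778-83664683. Ccl9, a macrophage-attracting ligand of CCR1, was at 45.2, 46.0, and 42.3 CPM in vehicle and 25.4, 27.3, and 23.8 CPM in FGF6 at 4 h, and at 67.6, 77.5, and 75.9 CPM against 7.11, 8.11, and 7.78 CPM at 24 h. The groups were apart at each time, and Ccl9 fell by 0.80 ± 0.06 at 4 h (adjusted p = 4.44e-11), by 1.52 ± 0.07 at 8 h (2.77e-16), and by 3.26 ± 0.07 at 24 h (1.31e-22). Ccl5, or RANTES, which attracts T cells and monocytes, was at 51.2, 49.8, and 57.9 CPM in vehicle and 52.3, 53.0, and 46.2 CPM in FGF6 at 4 h, with overlap, and at 47.8, 49.5, and 48.6 CPM against 25.4, 23.2, and 24.6 CPM at 24 h, without. Its log2 fold change was -0.07 ± 0.07 at 4 h (adjusted p = 0.403), -0.29 ± 0.07 at 8 h (0.000508), and -1.0 ± 0.07 at 24 h (3.19e-12). With library sizes alone, the value of -0.17 at 4 h was called (0.0269).

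Ccl4, or MIP-1 beta, which attracts monocytes and lies at the end of this row, went the opposite way at under 1 CPM. It had 2, 6, and 5 counts in vehicle and 19, 10, and 3 in FGF6 at 4 h, 3, 3, and 1 against 19, 8, and 7 at 8 h, and 3, 1, and 2 against 15, 26, and 25 at 24 h. The groups overlapped at 4 h and were apart later. The FGF6 to vehicle ratio was 5.29 (counting interval 2.31 to 14.1; adjusted p = 0.00253) at 8 h and 11.4 (4.96 to 32.1; 1.33e-05) at 24 h. At 4 h, the fitted log2 value of 1.44 ± 0.58 (0.0337) was not called without vehicle replicate 1 (1.1, 0.131), vehicle replicate 3 (1.57, 0.0515), or FGF6 replicate 1 (0.73, 0.348), nor by limma with voom (1.2, 0.0845). Of the other members in the row, Ccl3 had at most 10 counts in a library, and Ccl6 had 6, 10, and 6 counts in vehicle and none in FGF6 at 24 h (adjusted p = 7.64e-05 by edgeR without a filter on low counts).

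The remaining CC ligands tested are known for homing of lymphocytes to epithelia and thymus. Ccl25, the thymus and gut ligand of CCR9, was at 7.92, 8.02, and 7.82 CPM in vehicle and 11.4, 11, and 10.1 CPM in FGF6 at 24 h, with no overlap, and rose by 0.45 ± 0.10 on the log2 scale (adjusted p = 0.000174). At 8 h, it rose by 0.30 ± 0.09 (0.00558), a call lost without FGF6 replicate 2 (0.22, 0.0563), and at 4 h the value of 0.16 ± 0.09 (0.148) was called only without vehicle replicate 1 (0.25, 0.0291) or FGF6 replicate 3 (0.24, 0.0481). Ccl25 shares 204 exonic bases with Elavl1 on the opposite strand, and Elavl1 rose by 0.56, 0.73, and 0.61 at the same times. The part of those reads in the Ccl25 values was not tested. Ccl28, a mucosal ligand of CCR10 and CCR3, had 15, 11, and 8 counts in vehicle and 3, 1, and 1 in FGF6 at 8 h, a log2 difference of -2.56 ± 0.58 (adjusted p = 0.000363) with a counting interval of the ratio of 2.43 to 20.5, and 20, 29, and 13 counts against 1, 7, and 5 at 24 h (log2 -2.16 ± 0.43, 7.03e-05). Without FGF6 replicate 1 at 8 h, the fitted value was -3.17. Ccl17, a ligand of CCR4, had between 2 and 17 counts per library and was called lower at 4 h (log2 -0.95 ± 0.39, 0.0359) and 8 h (-1.15 ± 0.46, 0.0284) but not at 24 h (-0.60 ± 0.35, 0.124). Its calls were lost without vehicle replicate 1 or 3 or FGF6 replicate 1 or 3 at 4 h (-0.95 to -0.59, 0.0756 to 0.224), without vehicle replicate 1 or 2 or FGF6 replicate 1 or 3 at 8 h (-1.17 to -0.96, 0.0515 to 0.108), and by DESeq2 at both times (-0.95, 0.113, and -1.13, 0.0903).

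Receptors were few and low in these cells. Of the 17 signalling receptors, 3 were tested. Cxcr5, the receptor of CXCL13 that guides B cells to follicles, was at 0.94, 0.927, and 0.901 CPM in vehicle and 0.222, 0.414, and 0.488 CPM in FGF6 at 4 h, and at 1.4, 1.66, and 1.81 CPM against 0.474, 0.536, and 0.404 CPM at 24 h. The groups were apart at each time, and it fell by 1.3 ± 0.29 (adjusted p = 0.000438), 2.11 ± 0.27 (1.87e-07), and 1.77 ± 0.26 (1.27e-06) on the log2 scale at 4, 8, and 24 h. Its exons overlap those of Bcl9l on the other strand over 110 bases. Ccr10 was between 0.401 and 1.36 CPM in all libraries and was not called at any time, with 95% intervals of the log2 difference of -1.22 to 0.24, -0.83 to 0.47, and -1.20 to 0.28. Cxcr6, the receptor of CXCL16, had 7, 7, and 16 counts in vehicle and 17, 20, and 18 in FGF6 at 4 h (log2 1.03 ± 0.38, adjusted p = 0.0223), a call lost without vehicle replicate 1 (0.83, 0.101) or 2 (0.80, 0.112) or FGF6 replicate 3 (0.99, 0.058) and by DESeq2 (1.06, 0.0552), and it was not called at 8 or 24 h.

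Among the receptors with too few counts for the main test, Ccr1, a receptor of CCL9 and CCL5, had 1, 1, and 0 counts in vehicle and 17, 10, and 7 in FGF6 at 4 h. It had 0 counts in each vehicle library and 3, 2, and 6 in FGF6 at 8 h, and 0 against 4, 2, and 4 at 24 h. Each FGF6 library was thus above each vehicle library, though all were under 20 counts. The ratio at 4 h was 19.1 with a counting interval of 4.89 to 164, and without a filter on low counts edgeR called it (adjusted p = 5.46e-05 over 28614 genes with a count), as it did at 8 h (0.00211) and 24 h (0.0042). Cxcr2, the receptor of the CXCL1 and CXCL5 group, had 2, 0, and 3 counts in vehicle and 8, 3, and 6 in FGF6 at 4 h, and 0 against 3, 4, and 4 at 8 h, where edgeR without a filter called it (adjusted p = 0.00486). The atypical receptor Ackr2, which takes up inflammatory CC chemokines, had 10, 10, and 8 counts in vehicle and 0, 1, and 0 in FGF6 at 4 h, a ratio of 25 with an interval of 4.13 to 1020 (adjusted p = 0.000336 without a filter), and at most 5 counts later. Ackr4 had at most 10 counts in a library and was called lower at 4 h without a filter (adjusted p = 0.0437), and Ackr1 had none. Of the others, Ccr2, Ccr3, Ccr8, and Ccr1l1 had no count, and Ccr4, Ccr6, Ccr7, Ccr9, and Cxcr1 had at most 6.

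The other ligands that were not tested held few counts as well. Cxcl14 had between 4 and 11 counts per library at 4 h and at most 2 at 24 h, Ccl22 at most 11, Ccl20 at most 4, and Cxcl13, Cxcl17, and Xcl1 at most 2. Ccl27a had 5, 4, and 3 counts in vehicle and none in FGF6 at 4 h, and without a filter edgeR called it lower at 4 h (adjusted p = 0.00554), 8 h (0.0265), and 24 h (0.0148), with at most 7 counts in a library. Ccl19, Ccl21a, Ccl21b, Ccl24, Ccl26, and Ccl27b had no count.

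Levels were compared between genes per kilobase of exon, with all annotated exons of a gene merged. The order depends on this length. In CPM alone, Cxcl12 at 2110 ± 53.3 stood above Ccl2 at 1000 ± 67 (SD, n = 3) in vehicle at 4 h. In vehicle at 4 h, Ccl2 led with 882 ± 58.8 CPM per kb (SD, n = 3), followed by Ccl7 with 540 ± 33.1, Cxcl5 with 275 ± 13.5, Cxcl12 with 258 ± 6.52, Cxcl1 with 104 ± 4.77, and Cxcl10 with 82.4 ± 29.6. Cxcl5 and Cxcl12 overlapped, as did Cxcl1 and Cxcl10 and, next in order, Cxcl10 and Ccl5, which stood at 55.2 ± 4.55. In FGF6 at 24 h, Ccl2 at 477 ± 21.7 CPM per kb and Ccl7 at 258 ± 6.9 again led, followed by Cxcl5 at 47.7 ± 10.7 and Cxcl1 at 43.7 ± 7.11, which overlapped, while Cxcl12 at 8.59 ± 0.969 was below Ccl5, Cx3cl1, and Cxcl10.

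Summed over all 37 ligands per kb of exon, the level was above vehicle at 4 h and far lower at 24 h. The sum was 2270 ± 135 CPM per kb (SD, n = 3) in vehicle and 3320 ± 141 in FGF6 at 4 h. At 8 h, it was 2340 ± 147 and 2440 ± 60.1, and at 24 h it was 2670 ± 33.3 and 902 ± 46.8. The libraries were apart at 4 h and 24 h, with 3220 to 3490 against 2120 to 2390 and 864 to 955 against 2630 to 2700, and overlapped at 8 h. No p is given, because exchanging the labels of 3 and 3 libraries exactly gives 0.1 at the smallest. Ccl2 made up 38.9% ± 0.388 of the sum in vehicle and 57.8% ± 0.864 in FGF6 at 4 h, and 38.8% ± 0.107 and 52.9% ± 0.348 at 24 h. Cxcl12 made up 11.4% ± 0.426 and 1.77% ± 0.119 at 4 h, and 7.50% ± 0.303 and 0.957% ± 0.149 at 24 h. A share can move because its own gene or the rest of the sum moved, and the values above give both. The sum and the shares also depend on the exon length used. Without division by length, Cxcl12 would weigh more, with means of 2110 CPM in vehicle and 482 CPM in FGF6 at 4 h. Those of Ccl2 were 1000 and 2190 CPM. A sum of CPM alone is not given here, so the higher sum at 4 h holds for levels per kb only.

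**Figure D3:**
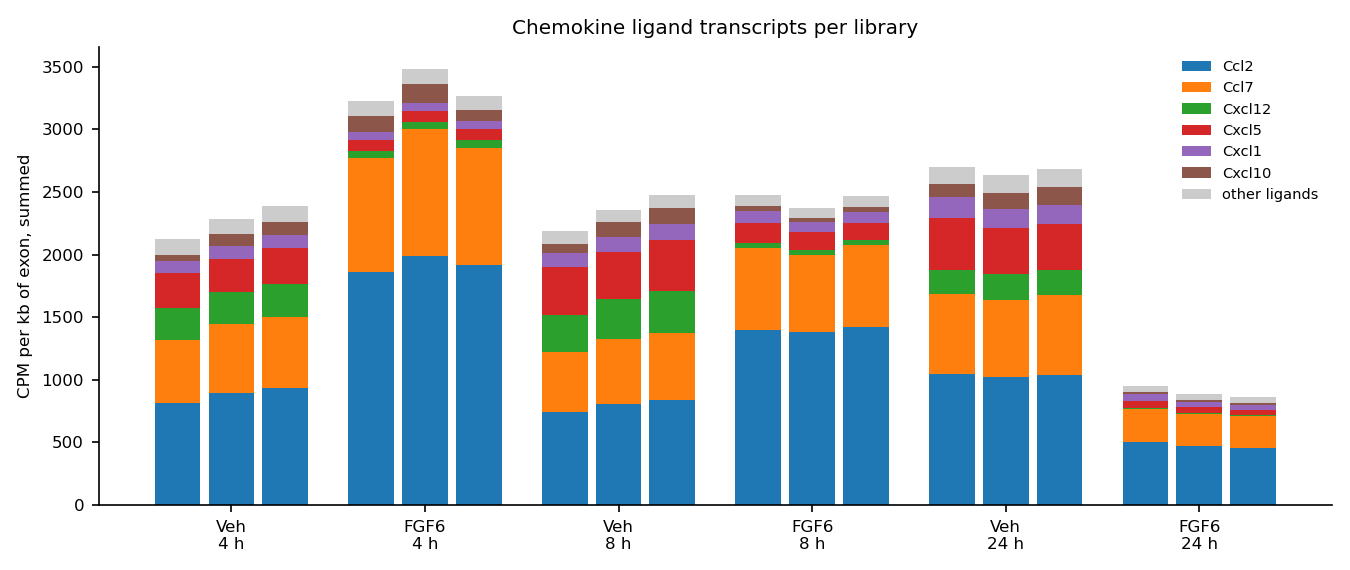
Ligand transcripts summed per library in CPM per kb of exon (y axis), one bar per library in the 6 groups, with the 6 most abundant ligands in color and the rest in grey. The FGF6 bars reach 3220 to 3490 at 4 h and 864 to 955 at 24 h, and Ccl2 and Ccl7 make up most of each.

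The change of the FGF6 effect between times was tested directly. Between 4 h and 8 h, the effect changed for 9 of the 23 members tested, where 30.6% of all genes did. Among the members, 2 changed upward and 7 downward, beside 15.5% and 15.1% of all genes. The upward ones were Ccl11 (1.58 ± 0.27, adjusted p = 7.01e-05) and Cxcl1 (0.29 ± 0.09, 0.0194), the latter not called without vehicle replicate 3 at 4 h (0.25, 0.0568) or FGF6 replicate 1 at 8 h (0.26, 0.0596). The largest downward one past 1 CPM was Cxcl10 (-2.15 ± 0.31, adjusted p = 6.91e-06). Between 8 h and 24 h, the effect changed for 14 of the 23, where 45.1% of all genes did. Of these 14, 13 changed downward and 1, Ackr3, upward, beside 22.5% and 22.6% of all genes. Cxcl9 (-5.55 ± 0.53, adjusted p = 4.12e-09), which without FGF6 replicate 3 at 24 h was -6.63, and Ccl11 (-5.45 ± 0.41, 4.55e-11) changed most.

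Vehicle cells changed over the same hours, and these comparisons share their vehicle libraries with those above. From 4 h to 8 h, 10 of the 23 members were called in vehicle, where 43.0% of all genes were, and from 8 h to 24 h 13 were, where 49.2% of all genes were. Of these 13, 10 rose, where 25.5% of all genes tested did. They included Cxcl9 (log2 1.17 ± 0.17, adjusted p = 3e-06), Cxcl2 (1.04 ± 0.26, 0.0016), Ccl9 (0.79 ± 0.06, 4.49e-11), Cx3cl1 (0.75 ± 0.04, 5.7e-14), and Ccl2 (0.38 ± 0.04, 7.49e-08). Cxcl12, Ackr3, and Ccl25 fell in vehicle, Cxcl12 by 0.66 ± 0.05 (adjusted p = 2.29e-10), while in FGF6 its mean went from 307 ± 3.27 to 70.3 ± 7.92 CPM (SD, n = 3). For Cxcl9, the vehicle mean went from 10.5 ± 1.07 to 23.6 ± 3.41 CPM and the FGF6 mean from 3.35 ± 1.29 to 0.158 ± 0.149 CPM. The fall of Ackr3 in vehicle was not called without vehicle replicate 2 at 24 h (-0.21, adjusted p = 0.0937). The 10 that rose became 8 to 9 when any 1 library was left out. Among them, the rise of Cxcl3 was lost in 6 of 6 such fits and that of Ccl28 in 4 of 6. DESeq2 called neither (1.33, adjusted p = 0.105, and 0.96, 0.111).

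Many chemokine genes lie in rows. With gaps of up to 500000 bases between members, 9 rows held 37 of the 58 members. The row from Ccl2 to Ccl1 spans 270.1 kb, and all of its 4 tested members, Ccl2, Ccl7, Ccl11, and Ccl8, were called lower at 24 h. In the row from Ccl5 to Ccl4, over 138.9 kb, Ccl5 and Ccl9 were lower and Ccl4 higher. In the row from Cxcl5 to Cxcl2, over 146.6 kb, Cxcl5, Cxcl3, and Cxcl1 were lower and Cxcl2 was not called. Cxcl9 and Cxcl10, 27.5 kb from end to end, were both lower, while of 2 tested neighbors on chromosome 8, Cx3cl1 was lower and Ccl17 was not called. The row of 7 receptors on chromosome 9, at chr9:123678439-124147699, had 1 tested member, Cxcr6. At 24 h, 69.6% of all tested members were called lower, beside 37.9% of all genes tested. The counts per row are to be read against these shares. Position was not tested as a factor.

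**Figure D4:**
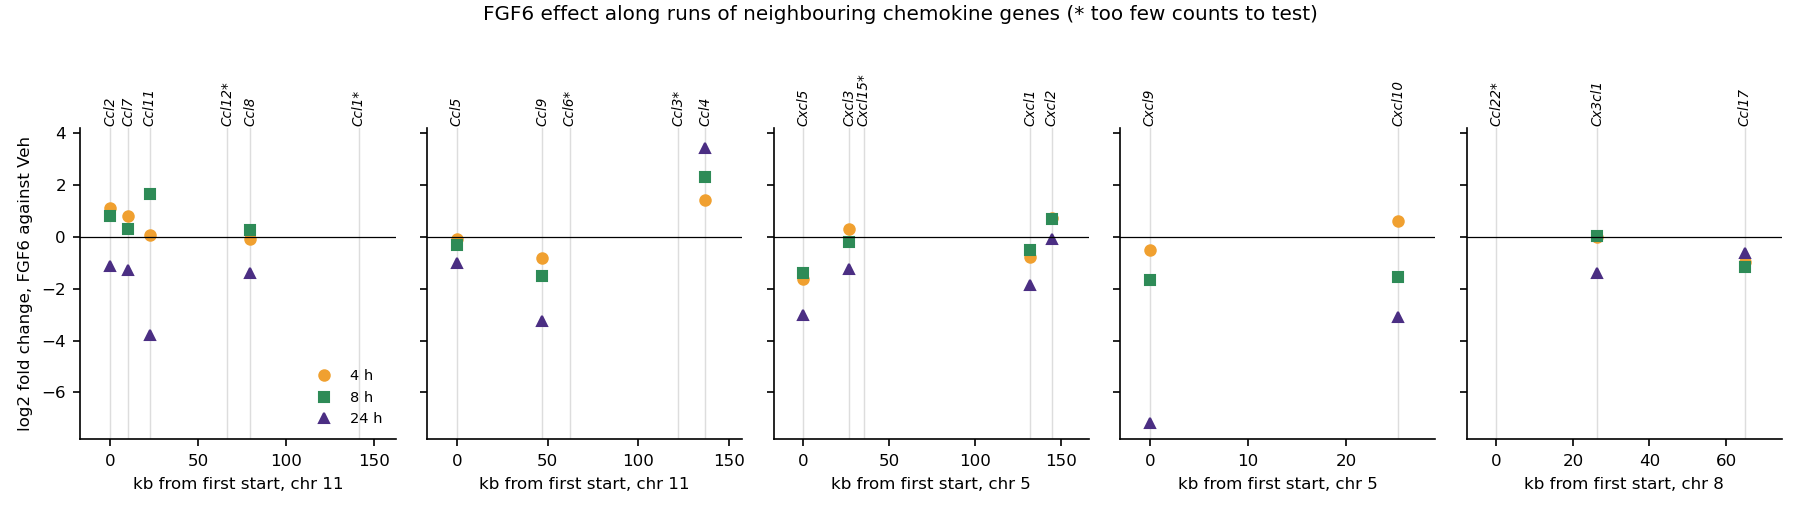
Log2 fold change of FGF6 against vehicle (y axis) at 4 h (circles), 8 h (squares), and 24 h (triangles) for members in 5 rows of neighboring genes, placed by the distance of their start from the first start (x axis, kb), with asterisks for members with too few counts to test. Ccl2, Ccl7, Ccl11, and Ccl8 all lie below zero at 24 h, and Ccl4 lies above zero at each time.

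Transcription factors of the NF-kB and interferon pathways are the best-known regulators of chemokine genes, and their transcripts were examined within a list of 18 genes. The list also held inhibitors and feedback genes of NF-kB and factors of the C/EBP family. Some of those inhibitors and feedback genes fell at 24 h, so a fall in the list is not only a fall of activating factors. At 4 h, 7 rose and 6 fell, at 8 h 4 rose and 9 fell, and at 24 h 2 rose and 12 fell, with a median log2 fold change of 0.03, -0.17, and -0.84, beside -0.05, -0.05, and -0.02 for all genes. Among all genes, 28.6% were called higher and 34.2% lower at 4 h, 32.4% and 38.4% at 8 h, and 35.9% and 37.9% at 24 h, so the counts of the list at 4 h were near those shares. At 24 h, Irf7, a factor of the interferon response, fell by 5.64 ± 0.22 (adjusted p = 9.9e-18). The 2 that rose were Cebpd (0.66 ± 0.09, adjusted p = 3.52e-07), of the C/EBP family, and Rela (0.14 ± 0.04, 0.00116), the latter encoding the p65 subunit of NF-kB. Transcript levels do not measure the activity of these factors, and their part in the chemokine values was not tested.

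**Figure D5:**
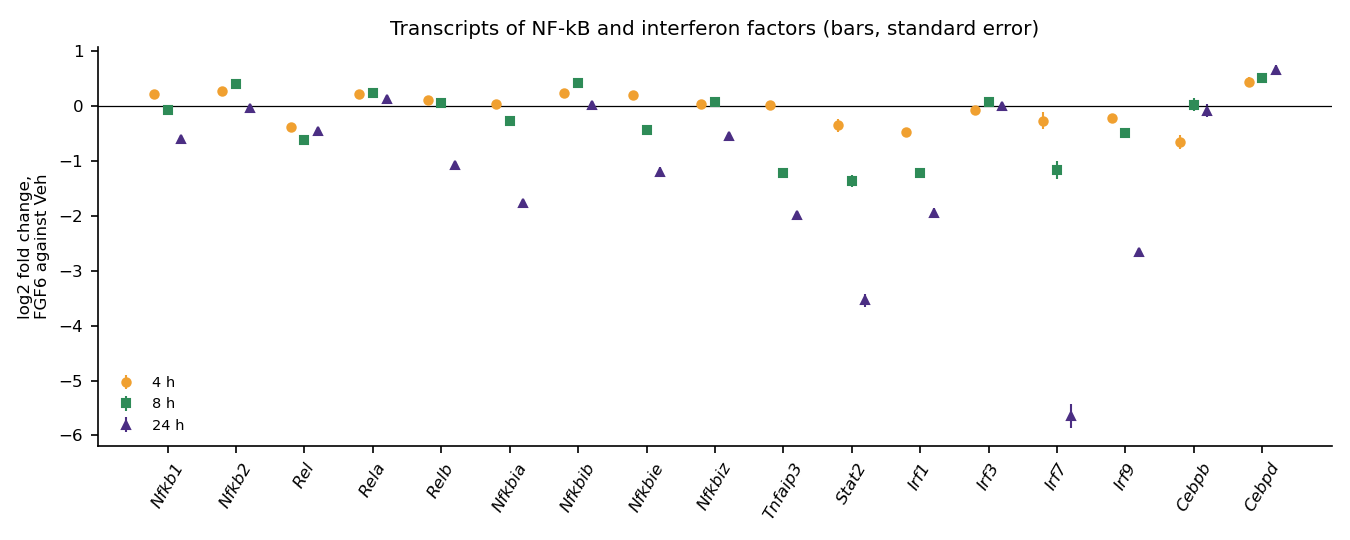
Log2 fold change of FGF6 against vehicle (y axis) with its standard error at 4 h (circles), 8 h (squares), and 24 h (triangles). The transcripts are those of NF-kB and interferon factors, NF-kB inhibitors and feedback genes, and C/EBP factors. Irf7 lies lowest at 24 h, at -5.64, and Cebpd lies above zero at each time.

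Other genes around the chemokines were described the same way, and their counts are to be read against the same shares of all genes. Of 12 chemokine-system genes with other names, 8 were tested, and at 24 h 2 rose, Mif (0.57 ± 0.05, adjusted p = 8.49e-11), a cytokine that binds CXCR2 and CXCR4, and Cklf (0.55 ± 0.09, 8.15e-06), and 5 fell, with the largest falls in Ccrl2 (-5.30 ± 0.46, 1.15e-10), which presents chemerin, and Cd74 (-3.71 ± 0.47, 1.16e-07), the receptor of MIF. At 4 h, 4 of these 8 rose, Ccrl2 among them (0.66 ± 0.26, adjusted p = 0.033), and the other 4 were not called, and at 8 h 4 rose and 2 fell. Of 30 receptor signalling genes, 25 were tested, with 9 higher and 9 lower at 4 h, 10 and 11 at 8 h, and 10 and 12 at 24 h, which is near the shares of all genes, and the medians were 0.04, -0.02, and -0.07. Rgs16, which turns off signalling of inhibitory G proteins, rose by 2.98 ± 0.09 at 24 h (adjusted p = 3.01e-20) and the receptor kinase Grk6 by 1.11 ± 0.03 (7.44e-20), while Elmo1, which links receptors to Rac, fell by 3.07 ± 0.12 (1.27e-17) and Rgs3 fell by 1.67 ± 0.09 (2.2e-14).

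Of 12 proteases that trim or shed chemokines, 9 were tested, with 3 higher and 4 lower at 4 h and at 8 h and 4 higher and 5 lower at 24 h, with medians of -0.33, 0.26, and -0.46, and with so few genes these counts are not set apart from the shares of all genes. Mmp13 rose by 3.52 ± 0.13 (adjusted p = 3.36e-18) and Cpm by 1.95 ± 0.43 (0.000236) at 24 h. Mmp2, a gelatinase known to cleave CXCL12 and CCL7, fell by 3.75 ± 0.06 (1.22e-25) and Mmp14, which activates it, fell by 1.34 ± 0.03 (6.58e-22). Of 7 genes that bind or degrade chemokine transcripts, 6 rose and 1 fell at 4 h, 5 rose and 1 fell at 8 h, and 4 rose and 3 fell at 24 h, with medians of 0.22, 0.23, and 0.25. The 3 lower at 24 h are near the 37.9% of all genes. At 24 h, Elavl1, which stabilizes such transcripts, rose by 0.61 ± 0.03 (adjusted p = 1.49e-15) and Hnrnpd by 0.33 ± 0.03 (6.08e-10), and Zfp36l1, which degrades them, fell by 2.56 ± 0.05 (1.4e-23) and Zc3h12a, an RNase, fell by 1.53 ± 0.04 (2.99e-20). Zfp36l2, of the same family as Zfp36l1, rose instead, by 1.31 ± 0.05 at 4 h (adjusted p = 1.26e-17), 0.87 ± 0.05 at 8 h (2.85e-14), and 0.25 ± 0.05 at 24 h (6.24e-05). Decay of chemokine transcripts was not tested.

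Markers of several cell types moved with the treatment, in both directions. At 24 h, 35.9% of all genes tested were called higher and 37.9% lower, and the counts of markers are to be read against these shares. The summed level of 9 leukocyte markers was 14.7 to 15.8 CPM in vehicle and 18.1 to 19.2 in FGF6 at 4 h, 11.4 to 13.0 and 10.9 to 11.5 at 8 h, and 7.69 to 8.69 and 3.43 to 4.04 at 24 h, most of it Cd68. Of 9 leukocyte markers, 3 were tested, and all 3 were lower at 24 h, too few to set apart from the share of all genes. The sum of 5 endothelial markers was at most 1.67 CPM in vehicle and 3.71 to 5.65 in FGF6 at 24 h, where Cdh5 reached 3.59 CPM and Pecam1 0.0963 CPM. The sum of 10 stromal markers went from 1500 to 1550 CPM in vehicle to 895 to 940 CPM in FGF6 at 24 h. Of its 9 tested members, 6 fell, among them Pdgfrb (693 to 134 CPM) and Ly6a (243 to 32.3 CPM), and 3 rose, namely Cd44 (165 to 503 CPM), Cd34 (16.5 to 43 CPM), and Prdm16 (6.02 to 9.08 CPM). The sum went, at the same time, for 4 pericyte and muscle markers, nearly all Acta2, from 610 to 617 CPM to 76.7 to 82.1 CPM, and for 6 adipocyte markers, most of it Fabp4, from 186 to 210 CPM to 71.5 to 79.2 CPM. What these shifts contribute to the chemokine values was not tested.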

How the data were processed

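RNA-seq was measured in 18 libraries of brown preadipocytes, 3 for each of 6 groups set by treatment and time. The deposited values are whole-number counts per gene, which the authors made by aligning reads with STAR to GRCm38.p4 and counting with featureCounts of Subread; their versions, the annotation release, and the strand setting are not given in the sources used here. Gene IDs were named through GENCODE M21, which matched 98.3%. Totals were 24327816 to 33471980 counts, and floors cover counting error only.

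Low genes were removed with filterByExpr (15071 tested), libraries were scaled by TMM, and 1 quasi-likelihood model over all groups was fitted with edgeR 4.0.16 (R 4.3.3). Adjusted p-values are Benjamini-Hochberg values over all genes tested, called under 0.05, and standard errors are those implied by the test's F. The study used limma with voom and an adjusted p of 0.25, which are alternatives here (limma 3.58.1; DESeq2 1.42.0). Other alternatives were scaling, the filter on low counts, the samples fitted, a 2-fold minimum, a replicate block, and leaving out each library. The steps were also run on simulated counts with planted changes. Every simulated gene had the same spread, so that run does not cover genes that vary more between libraries, and its outcome is not given here. Ratios of summed counts have exact 95% intervals for counting error.

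Members and lists were chosen with earlier results of these data known. Tested members are named, with values per library where a group mean reached 1 CPM and as counts below that. In each list other than the markers, at most 4 genes are named by rule, the 2 largest rises and the 2 largest falls at 24 h among those called with a group mean of at least 1 CPM. Zfp36l2 is named in addition. Promoters were taken from RefSeq for at most 4 members, those with the largest falls at 24 h among members with an entry in the promoter table. The lists were NF-kB and interferon factors (with NF-kB inhibitors and C/EBP factors), chemokine-system genes with other names, receptor signalling, proteases, mRNA decay, and markers of 5 cell types. The values of some genes of the family and the lists are not reported here.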

Additional observations from a re-analysis of the deposited data

Results flagged for a closer look

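The FGF6 effect differed between times for the following members, each by edgeR's test of the difference of 2 log2 fold changes at a Benjamini-Hochberg adjusted p under 0.05. From 4 h to 8 h, the difference was 1.58 for Ccl11, 0.29 for Cxcl1, -0.31 for Ccl2, -0.49 for Ccl7, -0.72 for Ccl9, -0.95 for Cxcl12, -1.14 for Cxcl9, -2.15 for Cxcl10, and -2.35 for Ccl28. That for Ccl28, under 1 CPM, had an adjusted p of 0.046 and was not called when any of 9 of the 12 libraries was left out, with an adjusted p of 0.0585 to 0.115. From 8 h to 24 h, the difference was 1.31 for Ackr3, the only member whose effect moved upward. It was -0.70 for Ccl5, -1.37 for Cxcl1, -1.43 for Cx3cl1, -1.46 for Cxcl12, -1.55 for Cxcl10, -1.62 for Ccl7, -1.63 for Cxcl5, -1.70 for Ccl8, -1.74 for Ccl9, -1.87 for Cxcl16, and -1.93 for Ccl2. It was -5.45 for Ccl11 and -5.55 for Cxcl9, both of which rest on 2 to 9 counts per FGF6 library at 24 h.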

How the results depend on the processing

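Apart from leaving out libraries, 1019 values of single members kept their direction and side of the threshold, 64 lost a call, 9 gained one, and 6 changed sign. Asking for at least 10 counts in every library left 14 members tested, with 5 lower at 4 h, 1 higher and 10 lower at 24 h, 1 effect moving up from 4 h to 8 h, and 3 higher in vehicle from 4 h to 8 h, which follows from testing fewer members. A 2-fold minimum left 3 higher and 4 lower at 4 h, 2 higher at 8 h, 1 higher at 24 h, 1 and 3 effects moving up and down from 4 h to 8 h, 1 and 0 higher and lower in vehicle from 4 h to 8 h, and 3 and 0 from 8 h to 24 h. Values near 0 changed sign, with library sizes alone for Ccl11 (-0.03) and Cx3cl1 (-0.09) at 4 h and Cx3cl1 at 8 h (-0.01), with upper-quartile factors for Cx3cl1 at 4 h (-0.05), and for Cxcl16 at 4 h with 10 counts in every library (0) and with only the times compared (0.01); the cause was not tested. Leaving out 1 library gave 4 to 5 members higher and 6 to 8 lower at 4 h, 1 to 2 effects moving up from 4 h to 8 h (1 without vehicle replicate 3 at 4 h or FGF6 replicate 1 at 8 h) and 3 to 6 lower in vehicle from 4 h to 8 h (3 without vehicle replicate 3 at 4 h). It changed signs at 4 h for Ccl5 (-0.11 to 0.02), Ccl8 (-0.2 to 0.03), Cxcl3 (-0.23 to 0.66), and Cxcl16 (-0.08 to 0.04), at 8 h for Cxcl3 (-1.48 to 0.2), Ccr10 (-0.44 to 0.06), and Cxcr6 (-0.22 to 0.49), and at 24 h for Cxcl2 (-0.34 to 0.27). Libraries with the same replicate number share only that number, with a correlation of deviations of -0.05 to 0.0455. With a replicate block for such a pairing, 6 rose and 8 fell at 4 h, 6 and 12 at 8 h, and 2 and 15 at 24 h, Cxcl3 no longer being called (-1.23, adjusted p = 0.0552). By limma with voom the counts were 5 and 8, 6 and 12, and 2 and 16, and by DESeq2 5 and 6, 7 and 11, and 2 and 15. At under 1 CPM, members had at most 29 counts in a library, which limits the precision of their values.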
